A study of Mus musculus with 7 samples.

Results

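Translation initiation factors load the ribosome onto mRNA, and 49 genes whose symbols begin with Eif1 to Eif6 were followed here in B-cell precursor (BCP) cells before and after overt leukemia. They were taken by symbol from the 24341 genes of the deposited expression table. The kinase genes Eif2ak1 to Eif2ak4 share the prefix but phosphorylate eIF2 and were left out, as were the sex-linked copies Eif2s3x and Eif2s3y. All samples came from Eμ-Ret hemizygote mice on a BALB/c background, which carry an oncogenic Ret fusion gene driven by the IgH enhancer, so the comparison has no transgene-negative control. The preleukemic group held 4 samples of BCP cells from young, healthy mice, and the leukemic group held 3 samples from older, moribund mice with overt disease. According to the labels, the cells of both groups were sorted from spleen by flow cytometry, and stranded mRNA libraries were sequenced. For other experiments, the methods describe leukemic spleen cells that were mostly used without enrichment. Age differs between the groups along with disease state, and the effects of both cannot be told apart. The labels do not say whether a sample is 1 mouse, so p-values measure only the spread between these samples.

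In mammalian cells, eIF1 and eIF1A hold the small ribosomal subunit open while it scans for a start codon, eIF2 brings the initiator tRNA, and eIF2B recharges eIF2 with GTP. The large eIF3 complex binds the small subunit and connects it to eIF4F, which consists of the cap-binding protein eIF4E, the RNA helicase eIF4A and the scaffold eIF4G. The 4E-BP proteins hold eIF4E away from eIF4G until the kinase mTORC1 phosphorylates them. The eIF5B protein then joins the large subunit, and eIF5A helps the ribosome past difficult peptide bonds.

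These genes were abundantly expressed in both groups, and most differed little between them. Values are FPKM (fragments scaled to transcript length and sequencing depth), and fold changes are leukemic against preleukemic on the log2(FPKM + 1) scale, which understates the change of low genes. Of the 49 genes, 46 reached an FPKM sum of 10 over the 7 samples and were tested with limma together with all other such genes. Their median FPKM over all samples was 97.2, against 17.1 for all 10541 genes tested. An adjusted p under 0.05 (Benjamini-Hochberg over all genes tested) was found for 3 of the 46 genes, or 6.52%, against 14.7% of all genes tested. All 3 were higher in leukemic samples, as were 8.47% of all genes: the eIF3 subunit genes Eif3i and Eif3g and the eIF2B subunit gene Eif2b4. No member was called lower, against 6.26% of all genes. In either direction, 15 of the 46 had an unadjusted p under 0.05, against 34.0% of all genes. Of these, Eif4a2 and Eif4e3 were lower and the others higher. Data were simulated for these libraries with 200 changed genes, drawn only from genes with a mean log2(FPKM + 1) above 3. In them, the test recovered 26.5% of genes changed by 0.5 on the log2 scale and 82% of those changed by 1. More genes than these 200 were called in the data. The median standard error was 0.088 for the members and 0.135 for all genes, so these shares need not hold for the members.

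**Figure D1:**
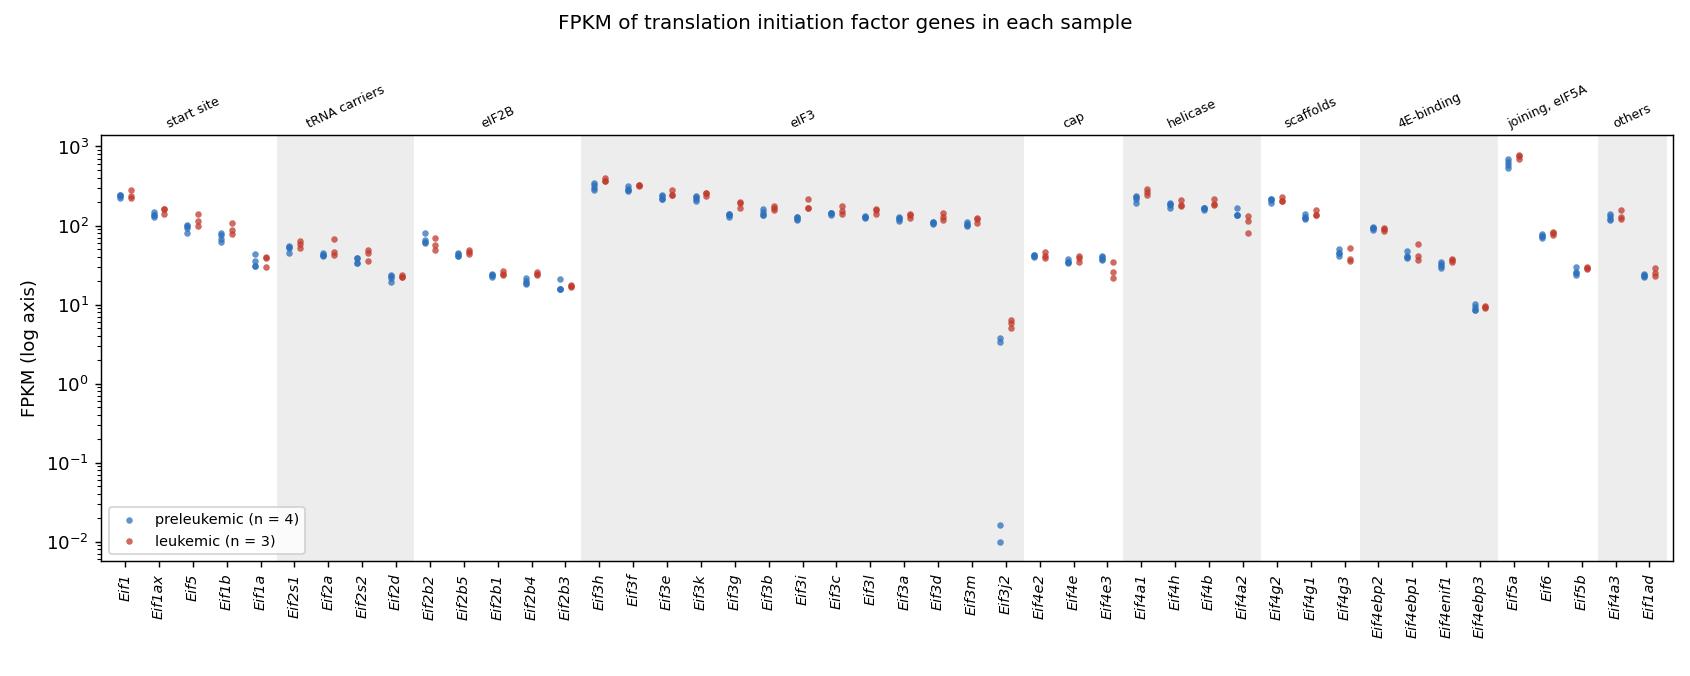
FPKM (log axis) of the 46 initiation factor genes tested, ordered by role and by mean level, with 1 point for each of 4 preleukemic (blue) and 3 leukemic (red) samples. The points of both groups overlap in 34 of the 46 genes, Eif5a is the highest, and the points of Eif3j2 near 0.01 are the preleukemic samples in which its value was assigned to Eif3j1.

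Most fold changes were small and, at the deposited scale, positive. Of the 46 genes, 41 had a log2 fold change above 0, against 47.9% of all genes tested. Their median was 0.14, and the median of all genes was -0.018. The share above 0 depends on the scaling, because the FPKM of all genes summed to between 507355 and 539887 in leukemic samples and to between 448022 and 471447 in preleukemic samples. After rescaling each sample to a sum of 1000000 (TPM), the median was -0.021 for the initiation factor genes and -0.18 for all genes, and 19 members were above 0. The distance between the medians was 0.16 under either scaling, and 41 of the 46 lay above the median of all genes under both. TPM shifts all genes of a sample nearly alike, so these values could hardly change. With quantile normalization the distance was 0.13, and 39 of the 46 lay above the median of all genes. The changes were also small in absolute terms. The log2 fold change was within 0.5 of 0 for 43 of the 46 genes, and for 45 of the 46 the whole 95% confidence interval lay within 1 of 0.

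**Figure D2:**
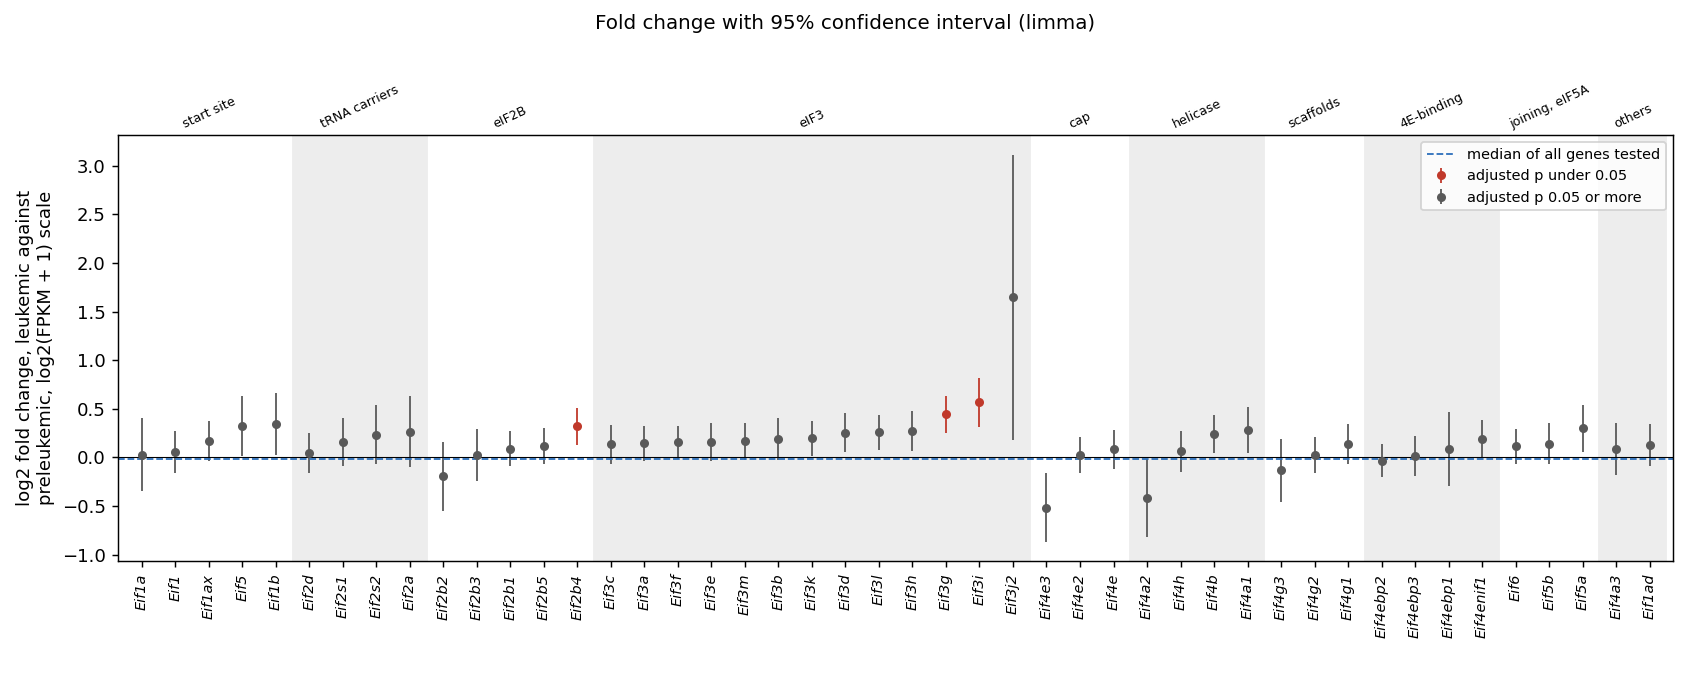
Log2 fold change, leukemic against preleukemic, of the 46 genes tested, with 95% confidence intervals from limma, grouped by role; red marks an adjusted p under 0.05 and the dashed line is the median of all genes tested (-0.018). All 13 eIF3 genes lie above 0 (9 of 13 with TPM), and Eif4e3 and Eif4a2 lie lowest, at -0.52 and -0.42.

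At the deposited scale, complete separation of the 3 leukemic from the 4 preleukemic values was seen in 12 of the 46 genes (26.1%), against 32.0% of all genes tested. In 10 of them every leukemic value was higher (Eif2b4, Eif3d, Eif3g, Eif3h, Eif3i, Eif3j2, Eif3k, Eif3l, Eif4a1 and Eif4b), where 14.9% of all genes showed this. In Eif4a2 and Eif4e3 every leukemic value was lower, where 17.1% of all genes did. Because FPKM sums were higher in leukemic samples, part of the higher separations depends on this scale, among them those of Eif3l and Eif4b. Separation was not counted with TPM.

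The sorted cells were checked with marker genes, because these are bulk samples. All 10 BCP markers, among them Pax5 and the surrogate light chain gene Igll1, were above the floor of 0.01 FPKM in every sample. Their summed level was 2883 to 4085 FPKM in leukemic and 5564 to 6984 FPKM in preleukemic samples, and 4 of the 10 were called lower. Enpep encodes BP-1, 1 of the surface proteins by which BCP cells were sorted, and its level was 19.1, 102 and 77.2 FPKM in the 3 leukemic samples against 134 to 210 FPKM before leukemia. Markers of red cell precursors summed to 4637 to 22884 FPKM in leukemic samples, and to 167 to 2159 FPKM in preleukemic samples, of which replicate 1 held the highest value, and all 8 tested were called higher. Macrophage markers summed to 148 to 276 against 33.3 to 82.6 FPKM (6 of 7 higher), and neutrophil markers to 1278 to 1590 against 133 to 769 FPKM (3 of 6 higher). T and NK cell markers summed to 10.4 to 31.5 against 6.36 to 12.4 FPKM, with 0 of 5 called by limma (2 at an unadjusted p under 0.05). No marker was at the floor in all samples. Initiation factors are made by all of these cell types, fewer cells of a type and less RNA per cell cannot be told apart, and the part of the other cells in the values below was not tested.

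The eIF3 complex held both of the clearest rises. Eif3i encodes a small WD-repeat subunit (chromosome 4, 129591960 to 129600648, minus strand, GRCm38). The leukemic replicates 1 to 3 held 216, 169 and 166 FPKM, with 129, 126, 120 and 117 FPKM in preleukemic replicates 1 to 4. Every leukemic sample was higher than every preleukemic one, with replicate 1 the highest. The group levels were 184 ± 28.0 (SD, n = 3) and 123 ± 5.73 FPKM (SD, n = 4). Eif3i rose by 0.56 on the log2 scale (SE, the standard error, 0.11, adjusted p = 0.0192 by limma).

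Eif3g encodes the RNA-binding subunit next to it in the complex (chromosome 9, 20894349 to 20898623, minus strand). Its level was 196, 191 and 166 FPKM in the leukemic samples and 136, 139, 138 and 129 FPKM in the preleukemic samples. The groups did not overlap, and leukemic replicate 3 was the closest to the preleukemic range. Eif3g rose by 0.44 on the log2 scale (SE 0.080, adjusted p = 0.0175). Both lost their call without preleukemic replicate 2, 3 or 4, with adjusted p between 0.0503 and 0.0665 for Eif3g and between 0.0533 and 0.0704 for Eif3i, while the fold changes stayed at 0.42 to 0.45 and 0.54 to 0.58.

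Eif3h had the highest mean level of the eIF3 genes. It had 364, 363 and 399 FPKM in leukemic and 295, 283, 324 and 341 FPKM in preleukemic samples. The groups were apart at the deposited scale, but the log2 fold change of 0.27 (SE 0.088) did not pass the threshold (adjusted p = 0.0757). Eif3d, whose protein can itself bind the cap of some mRNAs, had 117, 128 and 145 FPKM against 106 to 110 FPKM (log2 fold change 0.25, adjusted p = 0.0886). Eif3l had 163, 140 and 159 FPKM against 123 to 133 FPKM (0.26, adjusted p = 0.0667), and Eif3k had 261, 256 and 240 FPKM against 205 to 234 FPKM (0.19, adjusted p = 0.117). In these 4 genes the distance between the groups was small beside the levels themselves, and their separation depends on the deposited scale. The smallest log2 fold change of the complex was that of Eif3c, a core subunit, with 175, 153 and 141 FPKM against 136 to 145 FPKM (0.13, adjusted p = 0.303).

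Summed over its 14 genes, eIF3 reached 2511, 2371 and 2429 FPKM in leukemic samples and 2021, 2027, 2096 and 2109 FPKM in preleukemic samples. At the deposited scale no leukemic sum fell within the preleukemic range, and the ratio of the group means was 1.18. With TPM the log2 ratio of these sums was 0.076. Both the size of the difference and the separation of the groups depend on the scaling. All 13 eIF3 genes tested had a log2 fold change above 0 as deposited, and 9 did with TPM. All 13 lay above the median of all genes under both, which TPM could hardly change, and with quantile normalization. Of the same genes, 7 of 13 had groups that did not overlap at the deposited scale, all of them higher, as in 14.9% of all genes tested. The median log2 fold change of the 13 genes was 0.19.

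These values also differed by chromosome. Over all genes tested, the median log2 fold change was 0.22 on chromosome 9, which carries Eif3g and Eif1b, and lay between -0.083 and 0.015 on the other chromosomes that carry initiation factor genes. In leukemic replicates 1, 2 and 3 the chromosome 9 median deviated from the preleukemic mean by 0.32, 0.28 and 0.090 (log2, relative to all genes). Eif3g deviated by 0.53, 0.52 and 0.31 in the same samples, and Eif1b by 0.59, 0.31 and 0.17. After removal of each chromosome's median from every sample, the log2 fold change of Eif3g was 0.23 and it was no longer called (adjusted p = 0.0767). That of Eif3i on chromosome 4 was 0.61 (adjusted p = 0.0193), and that of Eif2b4 on chromosome 5 was 0.36 (adjusted p = 0.034).

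Chromosome 15 carries Eif3d, Eif3e, Eif3h, Eif3l and the helicase cofactor gene Eif4b. Its median deviated by -0.054, -0.025 and 0.21 in leukemic replicates 1 to 3. In replicate 3, Eif3d deviated by 0.43, Eif3e by 0.31 and Eif3h by 0.38, each more than in replicates 1 and 2. Eif3l (0.34, 0.15 and 0.32) and Eif4b (0.41, 0.15 and 0.21) did not have their largest deviation there. Chromosome 17, with the highest median (0.35), carries none of the 46 genes.

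**Figure D3:**
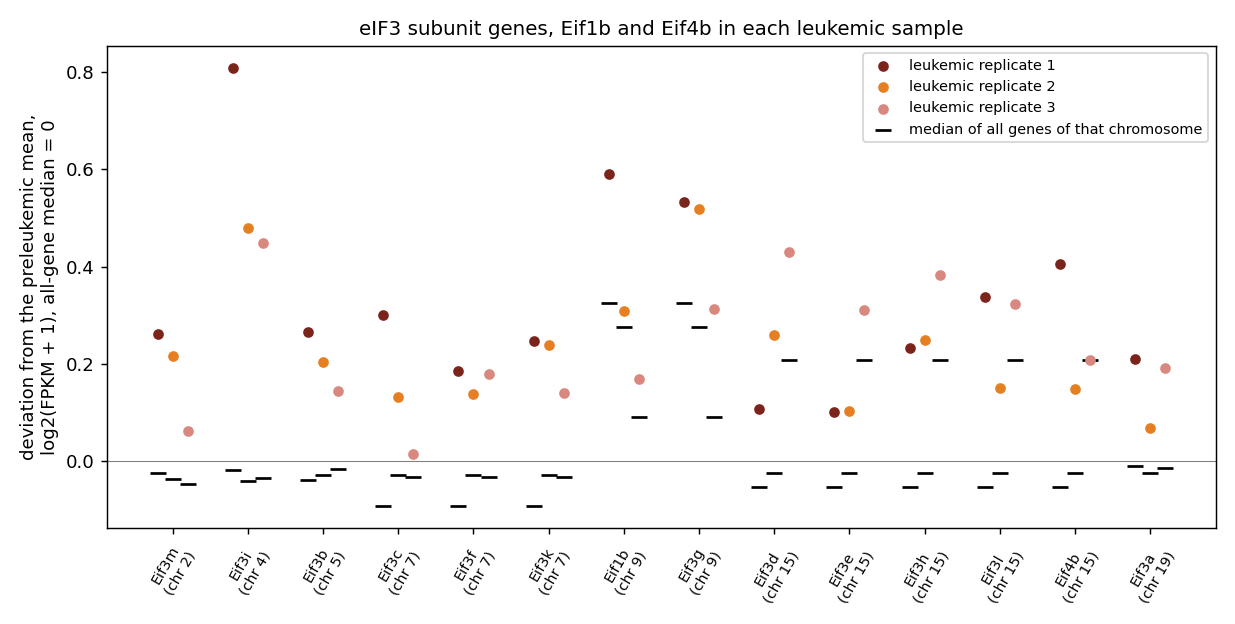
Deviation from the preleukemic mean (log2(FPKM + 1), relative to the median of all genes) of 12 eIF3 genes, Eif1b and Eif4b in leukemic replicates 1 to 3 (points), with the median of all genes of the same chromosome in that sample (black dashes). On chromosome 9 the points of Eif3g and Eif1b and the dashes are lowest in replicate 3, and on chromosome 15 the dash is high in replicate 3 only.

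Eif3j could not be measured reliably. The table lists its copies Eif3j1 and Eif3j2 at the same place on chromosome 2, whereas the GENCODE annotation of this assembly puts Eif3j2 on chromosome 18. Of the 50-base stretches of Eif3j2 transcripts, 90.8% also occur in Eif3j1. In preleukemic replicates 2 and 4 the value stood on Eif3j1 (5.03 and 3.44 FPKM) and Eif3j2 was near the floor, and in the other 5 samples it stood on Eif3j2. The fold change of Eif3j2 (1.65, SE 0.63, adjusted p = 0.114) rests on those preleukemic values near the floor and is uncertain. The sum of both was 5.17, 6.42 and 5.99 FPKM in leukemic and 3.90, 5.05, 3.47 and 3.45 FPKM in preleukemic samples.

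Of the 5 genes of eIF2B, the exchange factor for eIF2, only Eif2b4 was called, and its call was fragile. Eif2b4, which encodes the delta subunit (chromosome 5, 31187558 to 31193430, minus strand), had 24.5, 25.6 and 23.7 FPKM in leukemic samples and 21.4, 18.4, 19.8 and 18.6 FPKM in preleukemic samples. The groups did not overlap, and the log2 fold change was 0.32 (SE 0.082, adjusted p = 0.0425). Leaving out any single sample raised the adjusted p to between 0.0502 and 0.126, with log2 fold changes of 0.29 to 0.36. Eif2b2, the beta subunit and the most abundant of the complex, had 56.0, 69.6 and 49.2 FPKM against 59.7, 80.8, 61.0 and 65.1 FPKM, with overlapping groups and a log2 fold change of -0.20 (SE 0.15, adjusted p = 0.384). Summed eIF2B levels were 171 ± 11.7 FPKM (SD, n = 3) in leukemic and 169 ± 11.3 FPKM (SD, n = 4) in preleukemic samples.

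Of the genes that carry the initiator tRNA, 0 of 4 passed the test in limma, and 0 had an unadjusted p under 0.05. Eif2s1 encodes the alpha subunit of eIF2, the target of the stress kinases. It had 58.6, 63.4 and 51.7 FPKM in leukemic and 52.5, 55.6, 54.1 and 44.8 FPKM in preleukemic samples, which overlapped (log2 fold change 0.16, SE 0.11, adjusted p = 0.326). Eif2a, an alternative tRNA carrier outside the eIF2 complex, showed 1 sample apart, with 68.4 FPKM in leukemic replicate 1 and 41.0 to 46.6 FPKM in the other 6 (0.26, adjusted p = 0.267). Eif2d had the smallest log2 fold change of these genes, 0.046 (adjusted p = 0.739).

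The start site selection genes also had 0 calls among 5 in limma, with 2 (Eif1b and Eif5) at an unadjusted p under 0.05. Eif1 had 221, 278 and 239 FPKM in leukemic and 246, 223, 235 and 242 FPKM in preleukemic samples, so the leukemic values spanned the preleukemic ones (log2 fold change 0.054, SE 0.093, adjusted p = 0.708). Its close relative Eif1b had 108, 87.0 and 79.1 FPKM against 68.4, 61.2, 79.96 and 76.8 FPKM (0.34, SE 0.14, adjusted p = 0.126), with leukemic replicate 3 inside the preleukemic range. Eif1a had the smallest log2 fold change of the group, 0.029 (adjusted p = 0.913). Eif5, which stimulates GTP hydrolysis by eIF2 at the start codon, had 99.8, 138 and 113 FPKM against 80.6 to 100.3 FPKM (0.32, adjusted p = 0.131).

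The helicase genes had fold changes of opposite sign, and neither passed the test. Eif4a1 and Eif4a2 encode near-identical forms of the eIF4A helicase. Eif4a1 had 287, 268 and 242 FPKM in leukemic samples and 230, 238, 216 and 192 FPKM in preleukemic samples. Eif4a2 had 80.2, 114 and 133 FPKM in leukemic and 135, 166, 137 and 136 FPKM in preleukemic samples. At the deposited scale neither pair of groups overlapped, although the highest leukemic value of Eif4a2 lay close to the lowest preleukemic one. The separation of Eif4a1 depends on that scale. The log2 fold changes were 0.28 (SE 0.10, adjusted p = 0.0988) and -0.42 (SE 0.17, adjusted p = 0.139). With TPM scaling Eif4a2 passed (-0.58, adjusted p = 0.0464), and without leukemic replicate 1 its log2 fold change was -0.21 (adjusted p = 0.263). Eif4a1 is uncertain in level, since 65.3% of its 50-base stretches also occur in other transcripts, most of them in a pseudogene; for Eif4a2 this share was 9.23%.

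The ratio of both helicases within a sample does not depend on scaling. The Eif4a2/Eif4a1 ratio was 0.279, 0.425 and 0.551 in leukemic replicates 1 to 3 and 0.587, 0.695, 0.636 and 0.711 in preleukemic replicates 1 to 4. All leukemic ratios were lower, and leukemic replicate 1 was the lowest. The mean log2 ratio differed by -0.70 (exact permutation test over 35 labellings, two-sided, p = 0.0286, the smallest that 3 samples against 4 allow; adjusted over 8 ratios, 0.114). Without leukemic replicate 1 the difference was -0.44 (adjusted 0.267). With that adjustment over 8 no ratio could reach 0.05 unless most of them parted the groups. The helicase cofactor Eif4b had 219, 181 and 189 FPKM against 159 to 169 FPKM (log2 fold change 0.24, adjusted p = 0.0948), and Eif4h differed by 0.061 (adjusted p = 0.660).

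Among cap-binding genes, Eif4e3 had the lowest log2 fold change and did not pass the test, and the other cap-binding genes differed by less than 0.1. Eif4e3 encodes an atypical cap-binding protein (chromosome 6, 99625135 to 99666771, minus strand). It had 21.6, 34.6 and 25.7 FPKM in leukemic and 36.3, 38.2, 40.9 and 39.8 FPKM in preleukemic samples. Every leukemic value was lower, with replicate 2 close to the preleukemic range (log2 fold change -0.52, SE 0.15, adjusted p = 0.0589). It passed under quantile normalization (-0.54, adjusted p = 0.0403), with TPM (-0.69, 0.0157), with upper quartile scaling (-0.54, 0.0423) and without leukemic replicate 2 (-0.69, 0.0139). The overlapping gene Gm20696 on the same strand holds 11.5% of its 50-base stretches.

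Eif4e, the main cap-binding gene, had 40.6, 38.3 and 34.1 FPKM in leukemic and 34.7, 35.02, 38.2 and 34.0 FPKM in preleukemic samples (log2 fold change 0.082, SE 0.087, adjusted p = 0.529). Eif4e2, whose product competes for the cap, was the most abundant of the 3 by a small margin, with 41.7, 45.8 and 39.3 against 42.6, 41.1, 42.5 and 39.6 FPKM (0.024, SE 0.079, adjusted p = 0.847). The groups overlapped in part for both genes. The Eif4e3/Eif4e ratio was 0.531, 0.903 and 0.755 in leukemic samples and 1.05, 1.09, 1.07 and 1.17 in preleukemic samples. Eif4e3 was the higher of the pair in every preleukemic sample and the lower in every leukemic sample. The mean log2 ratio differed by -0.62 (exact permutation test, two-sided, p = 0.0286; adjusted over 8 ratios, 0.114), and by -0.41 without leukemic replicate 1. Eif4e1b, an oocyte form, was at the floor of 0.01 FPKM in all 7 samples and was not tested.

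**Figure D4:**
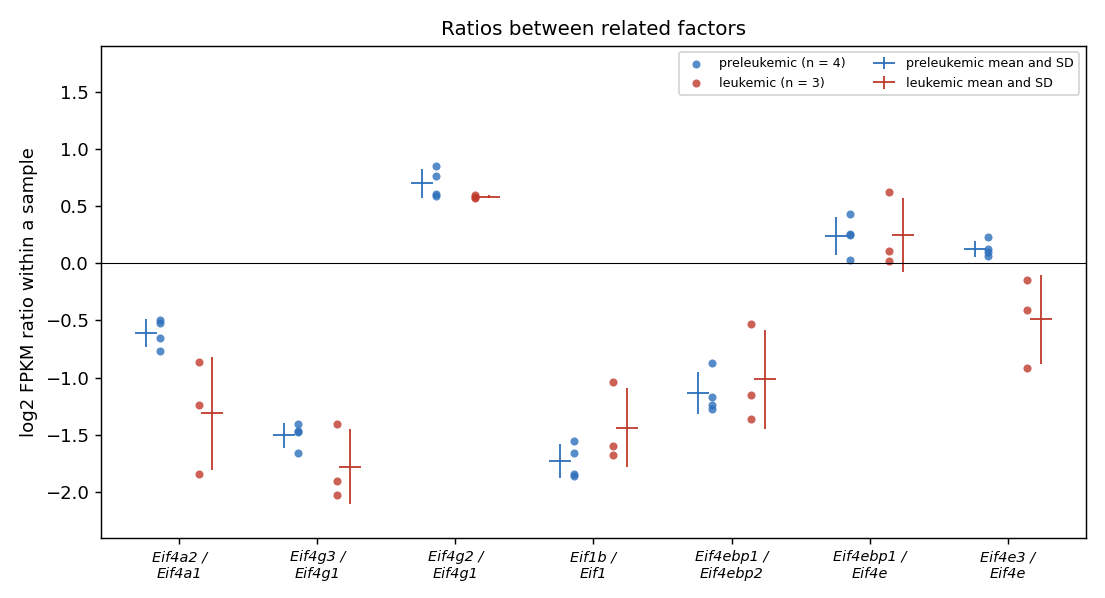
Log2 FPKM ratio of 7 pairs of initiation factor genes within each sample, with 1 point per sample and the mean and SD of each group beside the points (blue, 4 preleukemic; red, 3 leukemic). The groups are apart for Eif4a2/Eif4a1 and Eif4e3/Eif4e and overlap for the other 5 pairs.

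None of the 3 scaffold genes passed the test in limma, and 0 had an unadjusted p under 0.05. Eif4g1, the main scaffold, had 155, 135 and 136 FPKM in leukemic and 129, 141, 125 and 121 FPKM in preleukemic samples (log2 fold change 0.14, SE 0.087, adjusted p = 0.290). Eif4g2, which lacks the eIF4E-binding region, had 230, 202 and 206 FPKM against 193, 215, 212 and 218 FPKM (0.022, SE 0.080, adjusted p = 0.864). Eif4g3 had 38.0, 36.0 and 51.3 FPKM against 40.6, 51.1, 44.7 and 45.5 FPKM, and leukemic replicate 3 had the highest value of all 7 samples while replicates 1 and 2 had the lowest (-0.13, SE 0.14, adjusted p = 0.520). The Eif4g3/Eif4g1 ratio was 0.245, 0.267 and 0.377 against 0.316 to 0.377, and the Eif4g2/Eif4g1 ratio was 1.49, 1.49 and 1.51 against 1.5 to 1.80. Both ratios overlapped between the groups (exact permutation p = 0.229 and 0.2, adjusted 0.366 each). Cap-binding, helicase and scaffold genes together summed to 1264 ± 52.2 FPKM (SD, n = 3) in leukemic and 1208 ± 36.8 FPKM (SD, n = 4) in preleukemic samples.

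The repressors that bind eIF4E showed 0 calls among 4 in limma and 0 at an unadjusted p under 0.05. Eif4ebp2 was the most abundant, at 91.3, 84.9 and 94.1 FPKM in leukemic and 93.0, 86.6, 94.2 and 95.4 FPKM in preleukemic samples (log2 fold change -0.035, SE 0.073, adjusted p = 0.763). Eif4ebp1 had 41.1, 58.9 and 36.7 FPKM against 41.4, 47.3, 38.9 and 40.4 FPKM (0.089, SE 0.16, adjusted p = 0.724), with leukemic replicate 2 above all others. The largest log2 fold change of the repressors was that of Eif4enif1, which carries eIF4E into the nucleus, at 0.19 (adjusted p = 0.166). The repressor to cap-binding ratio Eif4ebp1/Eif4e was 1.012, 1.54 and 1.08 against 1.02 to 1.35, and Eif4ebp1/Eif4ebp2 was 0.451, 0.694 and 0.390 against 0.413 to 0.546. Neither ratio parted the groups (exact permutation p = 1 and 0.657, adjusted 1 and 0.816). The Eif1b/Eif1 ratio was 0.487, 0.312 and 0.331 against 0.275 to 0.341 and also overlapped (exact permutation p = 0.2, adjusted 0.366).

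In the group of subunit joining and eIF5A genes, Eif5a was the most abundant, and it was also the most abundant of all 49. The protein it encodes carries the amino acid hypusine. The leukemic replicates 1 to 3 held 760, 790 and 689 FPKM, with 628, 691, 575 and 535 FPKM in preleukemic replicates 1 to 4, so leukemic replicate 3 fell just below preleukemic replicate 2. The group levels were 746 ± 51.7 (SD, n = 3) and 607 ± 67.6 FPKM (SD, n = 4), a log2 fold change of 0.30 (SE 0.10) that did not pass the test (adjusted p = 0.0900). Its paralog Eif5a2 was almost silent, with 0.341, 1.67 and 0.801 FPKM against 0.580, 0.987, 0.812 and 0.765 FPKM, and was not tested. The Eif5a2/Eif5a ratio stayed between 0.000449 and 0.00211 (exact permutation p = 0.714, adjusted 0.816). Eif5b and Eif6 differed by 0.14 and 0.11 (adjusted p = 0.305 and 0.318).

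Eif4a3 and Eif1ad share the naming, and Eif4a3 is known from the exon junction complex. Eif4a3 had 159, 127 and 121 FPKM in leukemic and 139, 119, 130 and 120 FPKM in preleukemic samples (log2 fold change 0.088, SE 0.11, adjusted p = 0.613). Eif1ad differed by 0.13 (adjusted p = 0.368).

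Many translation genes carry the E-box CACGTG near their start, the recognition letters of Myc, Max and related factors. RefSeq promoter windows (250 bases before to 50 after the start, GRCm38.p6) were found for 37 of the 49 genes. The letters, which read the same on both strands, were present in 10 of the 37 (27.03%), in 12.4% of windows of all genes tested and in 8.09% of all windows. The 60-base stretches shown come from 3 such windows, those of the most abundant helicase gene and of a pair of eIF3 genes, as read in the direction of the gene with the matched letters in capitals.
Eif4a1 (chr11:69672580-69672639, minus strand, first matched base at -189): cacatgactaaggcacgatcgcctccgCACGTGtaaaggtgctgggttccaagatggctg
Eif3f (chr7:108934320-108934379, plus strand, -68): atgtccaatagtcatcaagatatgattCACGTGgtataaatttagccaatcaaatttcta
Eif3k (chr7:28981900-28981959, minus strand, -44): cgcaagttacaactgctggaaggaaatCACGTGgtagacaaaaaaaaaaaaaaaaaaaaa
The median log2 fold change was 0.15 for the 9 genes tested with the letters and 0.15 for the 26 without. None of the 9 and 2 of the 26 were called. A match of these letters is a description of the sequence and shows no binding.

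Of 35 other genes that act on or beside the initiation factors, 10 were called higher and 3 lower (37.1%, against 14.7% of all genes tested). The list was chosen with earlier results of these data known, so this contrast is no test of the pathway. The eIF2 kinase and phosphatase group held 4 calls among 6 genes. Ppp1r15a, the stress-induced phosphatase subunit that restores eIF2, had 21.7, 64.7 and 49.0 FPKM in leukemic and 13.8, 9.45, 5.86 and 6.61 FPKM in preleukemic samples, and rose by 2.15 on the log2 scale (SE 0.40, adjusted p = 0.0191). Eif2ak1, the heme-regulated kinase best known from red cell precursors, rose by 0.88 on the log2 scale (adjusted p = 0.0313), and its 3 leukemic values of 39.8, 77.1 and 55.9 FPKM stood in the order of the summed red cell markers. The leukemic values of Ppp1r15a stood in the same order, and its highest preleukemic value was that of replicate 1, where the red cell markers were also highest. The summed macrophage markers had the same leukemic order (148, 276 and 230 FPKM) and were also highest in preleukemic replicate 1. T and NK cell markers shared the leukemic order only, and neutrophil markers the preleukemic maximum only. The part of any of these cells in the rises of Eif2ak1 and Ppp1r15a was not tested. Eif2ak2, the kinase activated by double-stranded RNA, rose by 0.50 (adjusted p = 0.0191) but lies on chromosome 17 and was not called once chromosome medians were removed (adjusted p = 0.360). Eif2ak3, the kinase of the endoplasmic reticulum, had 33.1, 54.4 and 43.5 FPKM against 76.7 to 92.7 FPKM and fell by 0.93 (adjusted p = 0.0167).

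**Figure D5:**
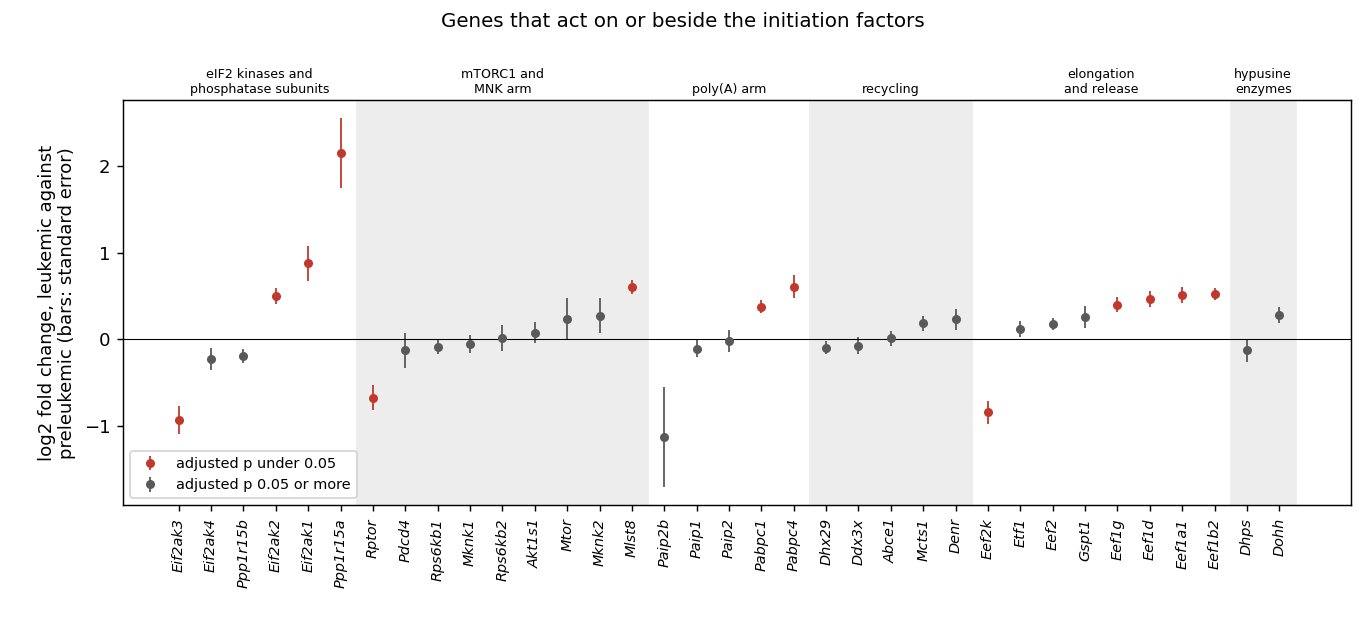
Log2 fold change, leukemic against preleukemic, of 35 genes that act on or beside the initiation factors, by arm, with the standard error from limma; red marks an adjusted p under 0.05. Ppp1r15a is the highest at 2.15, Eif2ak3, Rptor and Eef2k are the 3 genes called lower, and 4 elongation factor genes are called higher.

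In the mTORC1 and MNK arm, 2 of 9 genes passed, or 22.2%, against 14.7% of all genes tested. Mlst8, a subunit of both mTOR complexes, rose by 0.60 (adjusted p = 0.01004) and lies on chromosome 17; with chromosome medians removed its adjusted p was 0.0693. Rptor, which recruits mTORC1 substrates such as the 4E-BP proteins, had 15.2, 22.0 and 21.6 FPKM against 27.7 to 34.3 FPKM and fell by 0.68 (adjusted p = 0.0257). In the poly(A) arm, Pabpc1 and Pabpc4, which link the tail of the mRNA to eIF4G, rose by 0.37 and 0.61 (adjusted p = 0.0226 and 0.0266). Pabpc1 lost its call with TPM (0.21, adjusted p = 0.0953) and with quantile normalization (0.038, adjusted p = 0.763), and Pabpc4 lost it with TPM (0.45, adjusted p = 0.0527). Of the elongation genes, Eef1a1, Eef1b2, Eef1d and Eef1g rose by 0.51, 0.53, 0.46 and 0.40 (adjusted p between 0.01004 and 0.0304). Eef2k, the kinase that inhibits elongation, had 29.1, 34.2 and 23.4 FPKM against 49.8 to 57.8 FPKM and fell by 0.85 (adjusted p = 0.0136). Under quantile normalization Eef1a1 turned to -0.29 (adjusted p = 0.111), and Eef1b2 and Eef1g lost their calls (0.29 and 0.27, adjusted p = 0.0621 and 0.101). With TPM, Eef1d and Eef1g lost their calls (0.30 and 0.24, adjusted p = 0.0536 and 0.128). With chromosome medians removed, Eef1d was not called (0.44, adjusted p = 0.0553) and Eef1a1 was at 0.30 (adjusted p = 0.0269). None of the 5 recycling and re-initiation genes and neither of the 2 hypusine enzyme genes was called by limma (0 and 1 at an unadjusted p under 0.05). Across the arms, between 2 and 10 genes were called higher and between 0 and 3 lower when 1 sample was left out, with the lowest counts without preleukemic replicates 2, 3 and 4 (3, 2 and 2 higher; 2, 1 and 0 lower).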

How the data were processed

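The authors deposited 1 table of FPKM values for 24341 genes in 7 samples, mapped here by column name. The submitters' processing notes name STAR 2.5.0b, Cufflinks 2.2.1, bedtools 2.17.0, Bowtie and mm10, without their roles. The study tested counts. The table holds none, so the study's filter (a sum of at least 10, here of FPKM) and threshold (0.05) were kept and log2(FPKM + 1) was tested with limma 3.58.1 in R 4.3.3 (lmFit, eBayes with intensity trend, Benjamini-Hochberg). Ratios within samples were tested by exact permutation (Python 3.11.15, scipy 1.17.1).

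The members and lists were chosen with earlier results of these data known. Values in every sample are given for genes called, the most abundant gene of each role and the genes of the ratios; genes whose groups did not overlap, and other examples, were named after their values were seen. Depth, read from low values that step in whole fragments (73.4% to 80.1% whole within 0.1, 20% if evenly spread), was 13.4 to 16.1 M fragments per sample. Counting error, which covers counting alone, was 1.08% to 12.7% per sample at most for the 45 genes without Eif3j2. Gene positions and shared 50-base stretches come from GENCODE for GRCm38, and promoters from RefSeq GRCm38.p6. The fit was tested on simulated data (10541 genes, 200 changed), and made 4 false calls for a change of 0.5 on the log2 scale and 8 for 1. Alternatives were the pseudocount, the filter, the scaling, the trend, a replicate block and leaving out each sample; removal of chromosome medians was chosen after seeing the data. A further BCP marker of the original list is not reported here and was left out of the marker counts and sums.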

Additional observations from a re-analysis of the deposited data

Results flagged for a closer look

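Values of 3 kinds stood far from the others of their group by Dixon's test at the 95% level. Preleukemic replicate 2 had 20.79 FPKM of Eif2b3, an eIF2B subunit gene, against 15.59 to 15.88 FPKM in the other 3 preleukemic samples. The same sample had 165.7 FPKM of Eif4a2 against 134.7 to 137.3 FPKM, so the preleukemic mean of Eif4a2 rests in part on it. Preleukemic replicate 1 had an Eif5a2/Eif5a ratio of 0.0009248, against 0.001411 to 0.001429 in the others, with Eif5a2 under 1 FPKM in all 4. In all, 59 sets of 4 values were examined and 3 stood apart, where chance gives about 2.95.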

How the results depend on the processing

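Of initiation factor genes, 3 were called higher and 0 lower; without 1 sample the counts ranged from 0 to 3 and from 0 to 1, with 0 higher without preleukemic replicate 2, 3 or 4. Lower calls numbered 1 with quantile normalization (Eif4e3), 2 with TPM (Eif4a2 and Eif4e3) and 1 with upper quartile scaling. Of all genes tested, 893 were higher and 660 lower. These became 548 and 403 with an FPKM sum of at least 70, where fewer genes were tested, 686 and 2231 with TPM, 754 and 907 with quantile normalization, 849 and 848 with upper quartile scaling, and 708 and 436 with chromosome medians removed. Without 1 sample they ranged from 107 to 870 and from 42 to 750, lowest without preleukemic replicate 4. Of the 35 other genes of the pathway, 10 were higher and 3 lower; 6 were higher with quantile normalization and 6 with TPM, and without 1 sample the counts were 2 to 10 and 0 to 3.

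The replicate numbers do not pair the samples (same-number correlations of deviations 0.0294, 0.0502 and -0.0925). With the replicate number as a block, over 6 samples, 0 genes were called in any of these counts, higher or lower. Eif1a turned to -0.028, the same value as without preleukemic replicate 4, the sample that the block leaves out.

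With TPM, the log2 ratio of summed levels was 0.076 for eIF3 and -0.10 for the eIF4F group, and 19 of the 46 members were above 0. Of the 45 genes compared singly, these log2 fold changes turned with TPM: Eif1 (-0.11), Eif1a (-0.13), Eif1ad (-0.033), Eif2d (-0.12), Eif2s1 (-0.0042), Eif3c (-0.030), Eif4a3 (-0.077), Eif4e (-0.081), Eif4e2 (-0.14), Eif4ebp1 (-0.074), Eif4g1 (-0.025), Eif4g2 (-0.14), Eif6 (-0.050). Among the same 45, quantile normalization (34 of 46 members above 0) turned Eif1 (-0.063), Eif1a (-0.0020), Eif4a3 (-0.0047), Eif4e2 (-0.011), Eif4g2 (-0.072), Eef1a1 (-0.29), upper quartile scaling (39 of 46) Eif4g2 (-0.0022), and removal of chromosome medians Eif4ebp2 (0.021). Of these genes only Eef1a1 was called as deposited. The cause was not tested beyond the shift of all genes under TPM.

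Leaving out 1 sample turned these of the 45, with ranges: Eif1 (-0.037 to 0.13), Eif1a (-0.042 to 0.16), Eif2d (-0.0076 to 0.079), Eif4a3 (-0.032 to 0.16), Eif4e2 (-0.033 to 0.075), Eif4ebp1 (-0.11 to 0.23), Eif4ebp2 (-0.066 to 0.0070), Eif4g2 (-0.036 to 0.060). It turned the log2 differences of the ratios Eif4ebp1/Eif4ebp2 (-0.12 to 0.30), Eif4ebp1/Eif4e (-0.18 to 0.12), Eif5a2/Eif5a (-0.82 to 0.30). Eif2b4 lost its call in 11 alternatives (adjusted p 0.0502 to 0.215), Eif3g in 5 and Eif3i in 4. FPKM carries no counts, and for genes under 1 FPKM the depth limits what can be seen.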
